A study of Mus musculus with 68 samples.

Results

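Lung mRNA of CAST/EiJ and C57BL/6J mice that had both breathed 1,3-butadiene (BD) was compared in 11 RNA-seq libraries, 5 of CAST/EiJ and 6 of C57BL/6J. They were taken by their strain and exposure labels from 24 RNA-seq libraries, in a study of 68 lung samples that also held 20 small RNA and 24 chromatin accessibility samples, not analysed here. All animals were wild-type males from the same vendor, BD was given for 6 h per day on weekdays for 2 weeks, and the libraries were made from polyadenylated lung RNA. The sources used here do not give ages, litters or the number of animals behind each library, so that p-values measure the spread between libraries. The CAST/EiJ libraries carried the title numbers 7, 9, 10, 11 and 12 and the C57BL/6J libraries the numbers 13 to 18, and anything that follows these numbers cannot be told apart from strain. The library with number 8 was labelled CAST/EiJ under BD and was left out because its expression was that of C57BL/6J.

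C57BL/6J is the common laboratory inbred strain from which the mouse reference genome was built, whereas CAST/EiJ is a wild-derived inbred strain of the subspecies castaneus that carries many sequence variants against that reference. BD is an inhaled carcinogen. Cytochrome P450 enzymes turn it into epoxides that bind DNA, and epoxide hydrolase and glutathione S-transferases clear those epoxides. Differences between inbred strains in the genes of these enzymes, of DNA repair and of the immune system of the lung are the background against which the exposure acts. The comparison asks how far the exposed lungs of both strains differ, which the study's title ties to the DNA damage response.

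Levels are given in counts per 1000000 counts (CPM), scaled by the trimmed mean of M-values (TMM) over all 24 libraries. Values of CAST/EiJ are listed in the order of libraries 7, 9, 10, 11 and 12, and C57BL/6J is given by its lowest, median and highest library. Fold changes are those of CAST/EiJ relative to C57BL/6J from edgeR's quasi-likelihood test on the 11 libraries, with Benjamini-Hochberg adjusted p-values over all genes tested. A gene was called at an adjusted p under 0.05. The 11 libraries held 13202724 to 50001571 counts, so that 1 CPM stood for 13.2 to 50 counts.

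On a strain index over 326 genes that were called at 4-fold or more in clean air, scaled so that unexposed C57BL/6J lungs average 0 and unexposed CAST/EiJ lungs 1, library 8 stood at 0.0717. The 5 CAST/EiJ libraries stood between 0.964 and 1.01 and the 6 C57BL/6J libraries between 0.0643 and 0.0927. Of 1696 genes that were called at 2-fold or more with no overlap of the groups, library 8 was nearer the C57BL/6J mean in 1590 (93.8%) and nearer the CAST/EiJ mean in the rest. It lay inside the C57BL/6J range in 1096 of these genes and inside the CAST/EiJ range in 47, and in others it was intermediate. The table also held 21 entries without a value in any library labelled CAST/EiJ, number 8 included, and 19 of them matched a RefSeq symbol, all Y-linked. The part that processing by label had in these genes was not tested, and the level of library 8 is therefore given beside the groups for some genes below. Where it is not given, library 8 need not lie within the C57BL/6J range.

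The strains differed in a large share of the genes measured. Of 17174 genes tested, 7943 (46.3%) were called, 3950 (23%) higher and 3993 (23.3%) lower in CAST/EiJ. The counts in gene lists below stand against these shares. Most differences were small: the median fold of the called genes was 1.47, and 1989 (11.6%) reached 2-fold, 889 higher (5.18%) and 1100 lower (6.41%). The CPM ranges of the groups did not overlap in 5052 genes (29.4%). Over all tested genes the median log2 fold was 0.01. Within a group the median coefficient of variation of genes of at least 1 CPM was 12.04% in CAST/EiJ and 10.2% in C57BL/6J. With library 8 kept under its label, 5579 genes were called and 1273 of them at 2-fold or more.

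**Figure D1:**
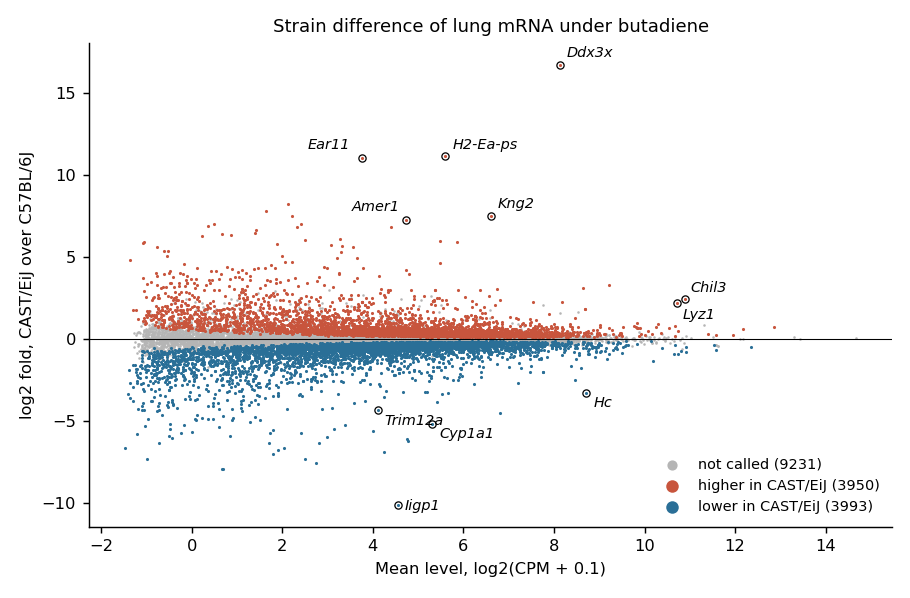
Log2 fold of CAST/EiJ over C57BL/6J under BD (vertical axis) against the mean level of each gene as log2(CPM + 0.1) (horizontal axis), 17174 genes. The 3950 higher and 3993 lower calls are coloured and spread evenly above and below 0, and named genes such as Kng2 and Iigp1 lie far from it (the height of Ddx3x, listed at 0 in C57BL/6J, depends on the fit's prior count).

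The most distant gene by fitted fold was Ddx3x, an X-linked RNA helicase that nearly all cells use. It was listed at 0 counts in all 6 C57BL/6J libraries and at 599, 632, 517, 534 and 521 CPM in CAST/EiJ, and library 8 held 515 CPM. Its Y-linked partner Ddx3y was among the 21 entries without a value in CAST/EiJ-labelled libraries and held 2123 to 5462 counts in the C57BL/6J libraries. No fold is given for Ddx3x, since its level went with the label of library 8. Amer1, an X-linked regulator of Wnt signalling, showed the same arrangement, at 60.8, 61.2, 52.1, 45.5 and 43.7 CPM in CAST/EiJ, from 0.229 over 0.357 to 0.382 CPM in C57BL/6J and at 55.9 CPM in library 8. The glycolytic enzyme Gapdh lay at 3.96 ± 0.392 CPM (SD, n = 5) in CAST/EiJ, at 26.7 ± 3.03 CPM (SD, n = 6) in C57BL/6J and at 2.64 CPM in library 8. Gapdh has many near-identical pseudogene copies, and its counts are uncertain.

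Kng2, a kininogen gene whose product is the precursor of kinins, had the smallest p-value of all genes tested. It was measured at 197, 194, 204, 180 and 189 CPM in CAST/EiJ. In C57BL/6J it ran from 0.877 over 0.968 to 1.25 CPM, a 184-fold difference (log2 7.53 ± 0.08 SE, adjusted p = 2.2e-15), with library 8 at 0.934 CPM. The ranges were far apart and the spread within each strain was small. Fgl1, a fibrinogen-like protein that acts as a ligand of an inhibitory T cell receptor, was 113-fold higher in CAST/EiJ (41.8 ± 7.89 against 0.366 ± 0.114 CPM). Itih4, an inter-alpha-trypsin inhibitor heavy chain of the acute phase, was 8.56-fold higher (716 ± 83.3 against 82.9 ± 16.2 CPM). Retsat, which saturates retinol, was 6.12-fold higher at 164 ± 13.9 against 26.5 ± 2.72 CPM, and Pon2, a lactonase of the paraoxonase family, was 4.34-fold lower at 23.1 ± 1.61 against 99.1 ± 3.47 CPM (SD, n = 5 and 6 throughout). In each of these 4 genes the ranges did not overlap and library 8 lay on the side of C57BL/6J.

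Major histocompatibility complex (MHC) genes were mostly lower in CAST/EiJ. Class II molecules carry peptides to CD4 T cells and are made by antigen-presenting cells under the transactivator Ciita, which acts through a promoter module that includes a Y box. Of 12 class II genes tested, 10 were lower and 1 was higher in CAST/EiJ, with a median log2 fold of -0.96 against 0.01 over all genes. To show the module's Y box where the members moved together, the 160 bases before the start are given for 3 members whose promoters hold its core, with the core TGATTGG, searched on both strands, in capitals. The sequences are those of RefSeq for C57BL/6J, not of CAST/EiJ.
H2-Aa, GRCm38.p6 chr17:34287824-34287983, minus strand: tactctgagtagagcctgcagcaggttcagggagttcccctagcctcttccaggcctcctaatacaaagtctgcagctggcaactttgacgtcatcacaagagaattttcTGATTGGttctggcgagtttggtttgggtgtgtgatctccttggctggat
H2-Eb1, GRCm38.p6 chr17:34305707-34305866, plus strand: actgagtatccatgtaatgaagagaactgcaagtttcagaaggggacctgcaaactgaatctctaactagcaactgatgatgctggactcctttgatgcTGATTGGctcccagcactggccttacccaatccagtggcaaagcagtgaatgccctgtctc
H2-Eb2, GRCm38.p6 chr17:34325515-34325674, plus strand: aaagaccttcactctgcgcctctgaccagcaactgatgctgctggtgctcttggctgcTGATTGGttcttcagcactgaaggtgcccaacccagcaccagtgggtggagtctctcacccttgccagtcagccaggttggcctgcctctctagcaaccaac
The core lies in this window in 7 of 8 class II members with a promoter in the RefSeq table and in 1947 of 32851 promoters (5.93%). H2-DMb2, which was not called, is among those that hold it. A match describes letters and not a site in use.

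H2-Aa, the alpha chain of the A molecule, was measured at 160, 134, 121, 135 and 86.8 CPM in CAST/EiJ. In C57BL/6J it ran from 221 over 264 to 387 CPM, and it was 2.32-fold lower in CAST/EiJ (log2 -1.21 ± 0.19 SE, adjusted p = 0.000244). All 5 CAST/EiJ libraries lay below all C57BL/6J libraries, and library 8, at 314 CPM, lay among the latter. Cd74, the invariant chain that guards the peptide groove, was 2.16-fold lower at 306 ± 44.1 (SD, n = 5) against 655 ± 137 CPM (SD, n = 6). H2-Eb2, an E beta chain gene of low level, was 4.96-fold lower at 0.651 ± 0.227 against 3.10 ± 1.45 CPM. H2-Eb1 was 1.55-fold lower with overlapping ranges (adjusted p = 0.0129). Ciita was 2.07-fold lower, at 23.3, 19.7, 19.6, 23.1 and 11.03 CPM against 22.4, 38.2 and 55.0 CPM, and its groups overlapped. H2-DMb2, which helps load peptides, was not called (15.1 ± 2.49 against 13.6 ± 4.79 CPM, adjusted p = 0.673).

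The exception among the class II genes was H2-Ea-ps, the alpha chain of the E molecule, which laboratory strains of the C57BL/6J haplotype are known not to make. In CAST/EiJ it stood at 117, 95.6, 83.2, 114 and 74.3 CPM. In C57BL/6J it ran from 0 over 0.0381 to 0.0758 CPM, 5 counts in all 6 libraries together, and library 8 held none. With library 8 kept under its label, none of 11 class II genes tested was higher and 4 were lower in edgeR's fit, and Ciita, H2-Eb1 and H2-Eb2 lost their calls. H2-Ea-ps was not tested in that fit, since it did not pass the filter on low counts.

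Class I molecules show peptides of the cell's own proteins to CD8 T cells and are read by natural killer cells. Of 33 class I and peptide loading genes tested, 23 were lower and 6 were higher in CAST/EiJ (median log2 fold -0.72). Among the classical heavy chains, H2-K1 was 1.67-fold lower, at 325 ± 36.9 (SD, n = 5) against 538 ± 56.5 CPM (SD, n = 6), and H2-D1 was 1.66-fold lower at 424 ± 47.5 against 698 ± 72.7 CPM. Beta-2 microglobulin, B2m, the light chain they share, was measured at 393, 448, 371, 395 and 325 CPM in CAST/EiJ and from 605 over 650 to 741 CPM in C57BL/6J (1.72-fold lower, log2 -0.78 ± 0.08 SE, adjusted p = 5.03e-06). The groups of all 3 genes were apart. Nlrc5, the transactivator of class I genes, was 4.02-fold lower at 11.2 ± 2.92 against 44.3 ± 9.90 CPM. The smallest adjusted p among the lower members belonged to the nonclassical H2-T22 (3.85-fold, 16.8 ± 1.43 against 63.7 ± 7.28 CPM) and its near-identical copy H2-T9, whose counts may hold the same reads. H2-Q2 and H2-Bl were 3.21-fold and 3.70-fold higher. H2-Q2 went with the label of library 8, which held 45.9 CPM against 21.4 ± 2.23 in CAST/EiJ and 6.63 ± 1.24 in C57BL/6J. For H2-Bl library 8 held 3.08 CPM, between 4.99 ± 0.888 in CAST/EiJ and 1.33 ± 0.341 in C57BL/6J and nearer the former. Reads of such copies can be split or misplaced when they carry variants against the reference, and their values are uncertain.

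**Figure D2:**
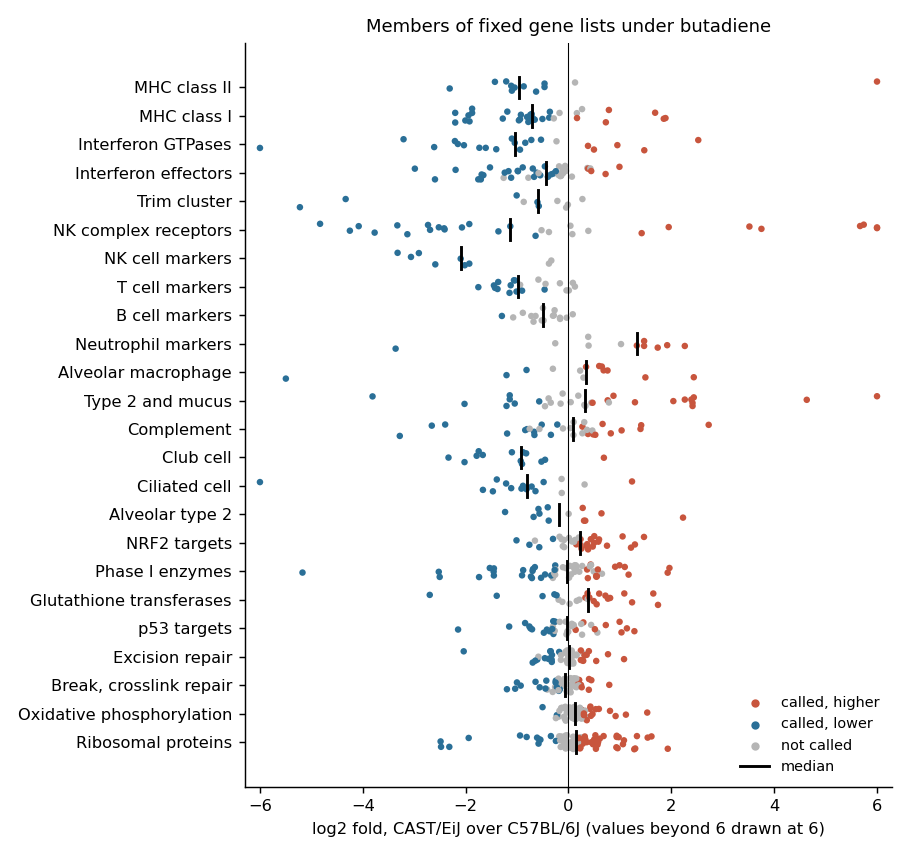
Log2 fold of CAST/EiJ over C57BL/6J for the tested members of 24 gene lists (one point per gene, values beyond 6 drawn at 6), coloured where called, with the median of each list as a black line. The MHC, interferon, natural killer, T cell, club cell and ciliated cell lists lie to the left of 0, and the neutrophil list lies to the right of it.

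Genes induced by interferon were lower as well. The interferon-inducible GTPases attack vacuoles of intracellular microbes, and the effectors block viral RNA. These genes are switched on through the interferon-stimulated response element, whose core is taken here as GAAA, any 2 bases and GAAA again. It is shown in capitals, on either strand, in the 160 bases before the start of 3 members that were lower, again from RefSeq for C57BL/6J.
Tgtp2, GRCm38.p6 chr11:49064213-49064372, minus strand: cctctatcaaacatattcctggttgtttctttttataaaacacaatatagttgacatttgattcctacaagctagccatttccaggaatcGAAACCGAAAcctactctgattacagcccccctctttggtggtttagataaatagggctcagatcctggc
Ifit3, GRCm38.p6 chr19:34583369-34583528, plus strand: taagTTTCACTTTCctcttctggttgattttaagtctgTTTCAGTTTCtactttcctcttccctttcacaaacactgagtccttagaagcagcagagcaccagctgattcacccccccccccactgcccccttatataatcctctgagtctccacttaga
Trim30d, GRCm38.p6 chr7:104507850-104508009, minus strand: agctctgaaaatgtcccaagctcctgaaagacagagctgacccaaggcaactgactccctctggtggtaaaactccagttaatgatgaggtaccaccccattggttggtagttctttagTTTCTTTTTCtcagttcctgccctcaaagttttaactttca
It was found in 9 of 11 GTPases, in 12 of 34 effectors and in 3 of 10 genes of the Trim cluster with a promoter in the table, and in 565 of 32851 promoters (1.72%). The core did not go with direction alone. Trim12a, which was lower, held none in this window, whereas Gbp3, which was higher, and Ifit1, which was not called, held it. The letters of both cores share no stretch that would make a match of one a match of the other.

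Of 21 interferon-inducible GTPases tested, 15 were lower and 5 higher in CAST/EiJ (median log2 fold -1.04). Tgtp2 was measured at 5.03, 6.598, 5.03, 5.39 and 3.17 CPM in CAST/EiJ and from 30.7 over 46.4 to 55.7 CPM in C57BL/6J. It was 9.24-fold lower (log2 -3.21 ± 0.19 SE, adjusted p = 5.24e-08), with the groups far apart, and shares sequence with the neighbouring Tgtp1. Gvin1, a very large GTPase, was 4.09-fold lower at 85.2 ± 9.77 (SD, n = 5) against 345 ± 50.8 CPM (SD, n = 6). Iigp1, which disrupts the vacuole of parasites, was all but missing in CAST/EiJ, with 5 counts in 5 libraries, at 0 to 0.139 CPM, against 33.2, 43.9 and 67.8 CPM. Library 8 held 51.6 CPM of Tgtp2, 416 of Gvin1 and 65.3 of Iigp1, inside the C57BL/6J ranges.

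The higher GTPases included Mx2 and Mx1, antiviral proteins whose genes are known to be defective in most laboratory strains. Mx2 was 5.75-fold higher, at 21.4, 44.7, 21.9, 18.9 and 15.9 CPM against 2.81, 4.35 and 5.35 CPM (log2 2.52 ± 0.26 SE, adjusted p = 8.76e-06). Mx1 was 2.78-fold higher at 8.57 ± 5.24 against 2.98 ± 1.13 CPM, with overlapping ranges. Library 9 was the highest of its group in both. Gbp5, a guanylate-binding protein, was 1.93-fold higher at 33.1 ± 4.92 against 16.98 ± 3.43 CPM.

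Of 46 interferon effectors and sensors, 25 were lower and 4 higher (median log2 fold -0.43). Ifit3, which binds foreign RNA, stood at 18.8, 28.5, 21.3, 18.9 and 18.4 CPM against 60.3, 67.2 and 75.8 CPM and was 3.22-fold lower (log2 -1.69 ± 0.11 SE, adjusted p = 1.04e-07). Ifit2 was 3.37-fold lower, the tethering factor Bst2 3.15-fold lower and Irf7, the master regulator of type I interferon, 3.26-fold lower at 4.26 ± 1.73 against 13.4 ± 2.36 CPM. None of these 4 had overlapping ranges. Ifit1, a close relative of Ifit3, was not called (23.6 ± 7.24 against 18.1 ± 3.69 CPM, adjusted p = 0.123). Xaf1, a proapoptotic interferon target, was 1.65-fold higher, Samhd1, which depletes deoxynucleotides, 1.36-fold higher and Ifi27 1.30-fold higher. In the Trim5, Trim12 and Trim30 cluster of antiviral ubiquitin ligases, 5 of 10 genes were lower and none was higher. The 50% called was close to the 46.3% of all genes, of which 23.3% were lower. Among the lower genes were Trim30d (0.575 ± 0.332 against 20.2 ± 3.47 CPM, 37.4-fold), Trim12a (1.69 ± 0.421 against 32.6 ± 3.21 CPM, 20.2-fold) and Trim68 (1.49-fold). Members of this cluster are near copies of each other. With library 8 kept under its label, 8 GTPases were lower and 4 higher, 13 effectors were lower and 4 higher, Iigp1 was no longer called (adjusted p = 0.266), and Trim12a and Trim30d were no longer called (adjusted p = 0.0657 and 0.108 in edgeR's fit).

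The receptor genes of the natural killer (NK) gene complex, whose products recognise class I molecules and related ligands, were moved in both directions. Of 29 tested, 16 were lower and 8 higher in CAST/EiJ (median log2 fold -1.13). Klrb1f, a receptor of the NKR-P1 family, was measured at 28.4, 23.5, 22.7, 20.7 and 21.2 CPM in CAST/EiJ and from 1.29 over 1.69 to 2.24 CPM in C57BL/6J (13.5-fold higher, log2 3.75 ± 0.13 SE, adjusted p = 2.27e-10). Its neighbours Clec2e and Klrb1-ps1 lay at 19.4 ± 2.66 and 19.1 ± 2.63 CPM against 0.361 ± 0.127 and 0.238 ± 0.164 CPM (SD, n = 5 and 6). Clec2e and Klrb1-ps1 held nearly the same values in each CAST/EiJ library, and the genes of this family may share reads. Clec2h, a ligand of the same receptor family, stood at 10.4 ± 3.29 against 0.066 ± 0.0851 CPM. Among the lower genes were Klra7 of the Ly49 family (0.133 ± 0.042 against 2.43 ± 0.483 CPM), its pseudogene copy Klra13-ps (0.168 ± 0.0661 against 3.36 ± 0.581 CPM) and Klrc2 of the NKG2 family (0.0689 ± 0.0654 against 2.09 ± 0.223 CPM). Their groups were apart, and library 8 held 4.67, 3.24 and 2.64 CPM of them.

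Markers of NK cells themselves were lower in CAST/EiJ, with 7 of 9 lower and none higher (median log2 fold -2.10). Gzma, a granzyme of killer cell granules, stood at 1.84, 1.95, 1.72, 2.47 and 0.815 CPM against 13.2, 17.3 and 19.6 CPM, a 10.01-fold difference (log2 -3.32 ± 0.23 SE, adjusted p = 1.42e-07). Gzmb was 8.36-fold lower and Klrb1c, the NK1.1 antigen, 3.81-fold lower at 2.02 ± 0.814 against 7.58 ± 0.672 CPM. The summed level of the NK list was 10.3 to 17.6 CPM in CAST/EiJ, 39.8 to 56.7 in C57BL/6J and 55.2 in library 8. Of 20 T cell markers 12 were lower and none higher (median log2 fold -0.98), with Lck, the kinase of the T cell receptor, at 2.75 ± 0.748 against 7.46 ± 1.75 CPM, Cd8b1 3.37-fold lower and Thy1 2.18-fold lower. In bulk tissue, fewer cells of a type and less RNA per cell cannot be told apart. Of 16 B cell markers 15 had a log2 fold below 0 and 1 above it (median -0.49). Only Cd22, an inhibitory receptor, was called (2.45-fold lower, 10.01 ± 3.61 against 24.1 ± 7.55 CPM). The B cell markers called lower numbered 2, 4 and 3 without libraries 7, 16 and 17, and 3 by DESeq2. With library 8 kept under its label, 4 NK, 2 T cell and no B cell markers were called lower in edgeR's fit, and Klra7, Klrc2, Lck and Cd22 were among the genes that lost their calls.

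**Figure D3:**
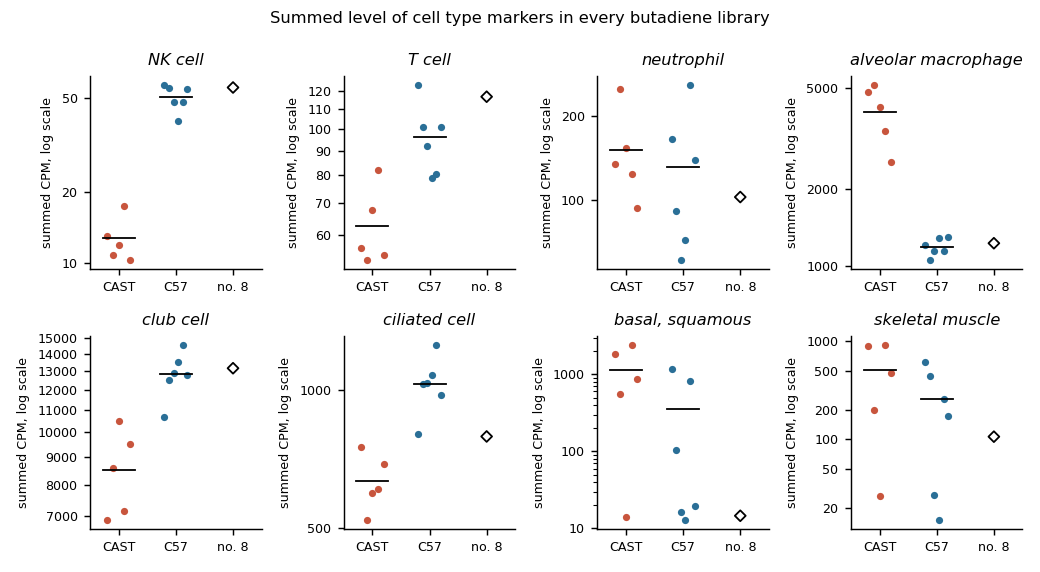
Summed CPM of 8 marker lists (log axes) in each BD library, with CAST/EiJ and C57BL/6J libraries as points, group means as lines and library 8 as a diamond. NK cell sums lie at 10.3 to 17.6 CPM in CAST/EiJ and 39.8 to 56.7 in C57BL/6J with no overlap, whereas the basal and squamous sums span 14 to 2434 and 12.9 to 1167 CPM.

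Neutrophil markers were higher in CAST/EiJ, with 6 of 11 higher and 1 lower (median log2 fold 1.33), but their libraries varied. Csf3r, the receptor of the granulocyte growth factor, stood at 40.5, 67.4, 48.4, 35.1 and 21.3 CPM against 5.26, 8.16 and 26.4 CPM (3.78-fold, log2 1.92 ± 0.43 SE, adjusted p = 0.0039), and its groups overlapped: C57BL/6J library 13 held 26.4 CPM and lay above CAST/EiJ library 12, and no other C57BL/6J library reached the CAST/EiJ range. Cxcr2, a chemokine receptor of neutrophils, was 3.33-fold higher and Il1r2, a decoy receptor of interleukin 1, 2.51-fold higher, both with overlapping ranges. Ltf, lactoferrin, which airway glands make as well, was 10.3-fold lower at 8.09 ± 3.74 against 83.5 ± 76.6 CPM. The summed level of the list was 93.5 to 249.6 CPM in CAST/EiJ and 61.1 to 258.7 in C57BL/6J, with full overlap.

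Among 48 chemokines and receptors 15 were higher and 12 lower (56.2% called, against 46.3% of all genes). Cxcr1, a further receptor of neutrophil chemokines, stood at 15.4, 24.5, 14.9, 21.1 and 13.7 CPM in CAST/EiJ against 0.649, 1.09 and 1.59 CPM (16.7-fold higher, log2 4.06 ± 0.24 SE, adjusted p = 3.83e-08), and Cxcl5, which attracts neutrophils, at 5.68 ± 2.93 against 0.272 ± 0.110 CPM. Ccl21a, which guides lymphocytes along lymphatic vessels, was 2.54-fold higher at 97.3 ± 12.7 against 37.99 ± 5.45 CPM. Ccl5, a chemokine of T and NK cells, was 8.50-fold lower (0.540 ± 0.183 against 4.48 ± 1.12 CPM), Cx3cl1 2.32-fold lower and the stromal chemokine Cxcl12 2.16-fold lower at 59.9 ± 10.8 against 128 ± 9.71 CPM. In each of the 6 the groups were apart.

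Among pattern recognition receptors, 10 of 32 were higher and 6 lower (50% called, close to the 46.3% of all genes). Tlr4, the receptor of lipopolysaccharide, was 1.98-fold higher (101.7 ± 10.97 against 51.0 ± 4.82 CPM) and Nlrp1a, an inflammasome sensor, 19.9-fold higher (26.3 ± 4.04 against 1.29 ± 0.438 CPM), whereas Tlr5, the flagellin receptor, was 6.10-fold lower (1.93 ± 0.351 against 11.6 ± 1.46 CPM). None of these ranges overlapped.

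Macrophage products of type 2 immunity were among the most abundant transcripts that differed. Chil3, a chitinase-like protein of alternatively activated and alveolar macrophages, was measured at 4041, 4196, 3414, 2666 and 1818 CPM in CAST/EiJ. In C57BL/6J it ran from 516 over 580 to 684 CPM, and it was 5.41-fold higher in CAST/EiJ (log2 2.44 ± 0.19 SE, adjusted p = 5.12e-07). Each CAST/EiJ library exceeded every C57BL/6J library, although library 12 held less than the others, and library 8 held 586 CPM. Its close copy Chil4 was 5.32-fold higher at 77.6 ± 22.9 against 14.4 ± 2.66 CPM. Ear11, an eosinophil-associated ribonuclease made by macrophages, stood at 46.8, 27.2, 22.6, 23.6 and 14.9 CPM in CAST/EiJ, whereas C57BL/6J held 1 count in 6 libraries. In the other direction Chia1, the acidic chitinase, was 14.03-fold lower (5.80 ± 1.89 against 79.6 ± 24.02 CPM) and Ear2, one of several near-identical ribonuclease copies, 2.31-fold lower. Over the list of type 2 inflammation and mucus 12 of 30 were higher and 7 lower (63.3% called, against 46.3% of all genes).

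Of 13 alveolar macrophage markers 7 were higher and 3 lower (median log2 fold 0.34). Their summed level, to which Chil3 gave the largest share in CAST/EiJ, was 2556 to 5143 CPM in CAST/EiJ, 1056 to 1298 in C57BL/6J and 1229 in library 8. Fabp1, a fatty acid binding protein, was 2.82-fold higher at 33.3 ± 4.33 against 11.7 ± 2.78 CPM, Pparg, the regulator of alveolar macrophage identity, 1.57-fold higher at 30.4 ± 2.38 against 19.2 ± 2.19 CPM, and the scavenger receptor Marco 1.69-fold higher at 71.6 ± 17.8 against 41.8 ± 6.82 CPM. Krt79, a keratin found in these cells, was 45.1-fold lower at 0.400 ± 0.172 against 17.2 ± 1.33 CPM. The members thus did not move as a block, and the ranges of these 4 genes did not overlap. Krt79 was no longer called with library 8 kept under its label (adjusted p = 0.0856).

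Complement genes differed strongly in both directions, with 10 of 31 higher and 11 lower (67.7% called). Hc, which encodes complement component 5, was measured at 83.6, 84.9, 77.8, 93.5 and 56.6 CPM in CAST/EiJ and from 662 over 774 to 853 CPM in C57BL/6J. It was 9.72-fold lower (log2 -3.28 ± 0.12 SE, adjusted p = 4.05e-10), with library 8 at 873 CPM. C7, a later component of the membrane attack complex, was 6.31-fold lower at 40.6 ± 5.24 against 254 ± 28.1 CPM. Higher in CAST/EiJ were C6 (2.67-fold, 98.7 ± 13.7 against 36.7 ± 2.86 CPM), the inhibitory protease Cfi (6.62-fold) and Cd59a, which blocks the final pore (2.64-fold, 26.5 ± 2.73 against 9.96 ± 0.942 CPM). The groups of these 5 genes were apart. Hc was no longer called with library 8 kept under its label (adjusted p = 0.054).

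Club and ciliated cell genes were mostly lower in exposed CAST/EiJ lungs, which did not hold for every airway list. Of 7 neuroendocrine markers tested, 3 were higher and 2 lower, and basal and squamous markers are given below. Club cells are secretory cells of the small airways and, with their P450 enzymes, a main site where inhaled chemicals are activated. Of 13 club cell markers 12 were lower and 1 was higher in CAST/EiJ (median log2 fold -0.93). Scgb3a2, a secretoglobin, was measured at 156, 89.5, 227, 108 and 218 CPM in CAST/EiJ and from 369 over 497 to 687 CPM in C57BL/6J, a 3.17-fold difference (log2 -1.67 ± 0.28 SE, adjusted p = 0.000503) with groups apart. Cyp2f2, the P450 of club cells, was 1.84-fold lower at 1145 ± 195 against 2088 ± 244 CPM, Gabrp, an epithelial receptor subunit, 3.35-fold lower and Scnn1b, a sodium channel subunit, 1.77-fold lower at 68.8 ± 3.09 against 121 ± 8.13 CPM. Hp, haptoglobin, also an acute phase protein, was the higher member (1.61-fold, 1149 ± 154 against 706 ± 93.2 CPM). The most abundant marker, Scgb1a1, was 1.37-fold lower with overlapping ranges (adjusted p = 0.0303), and was not called without C57BL/6J library 15 or 16 or CAST/EiJ library 7, 11 or 12 (adjusted p 0.0518–0.0762) or with library 8 kept under its label (adjusted p = 0.214).

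Of 17 genes of ciliated cells, which sweep mucus along the airway, 13 were lower and 1 was higher (median log2 fold -0.82). Dnah5, a dynein heavy chain of the ciliary outer arm, was 3.17-fold lower at 87.5 ± 13.8 (SD, n = 5) against 275 ± 44.9 CPM (SD, n = 6), and Cdhr3, a cadherin-related rhinovirus receptor, 2.77-fold lower at 24.8 ± 4.11 against 68.3 ± 7.56 CPM. Foxj1, the regulator of ciliated cell fate, was 1.56-fold lower at 35.1, 18.1, 28.5, 34.6 and 35.6 CPM against 32.8, 47.6 and 59.0 CPM, and its ranges overlapped. Fam183b stood at 0 to 0.139 CPM against 10.4 to 15.6 CPM, while Rsph1, a radial spoke protein, was 2.36-fold higher at 40.4 ± 6.03 against 16.99 ± 2.27 CPM. Fam183b lost its call with library 8 kept under its label (adjusted p = 0.0684). Library 8 held 35.3 CPM of Foxj1 and a summed ciliated level of 791.4 CPM, between the 520.6 to 748.9 CPM of CAST/EiJ and the 799.7 to 1254 of C57BL/6J.

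Markers of basal and squamous epithelium and of muscle varied widely between libraries. Summed basal and squamous epithelial markers ran from 14 to 2434 CPM in CAST/EiJ and from 12.9 to 1167 CPM in C57BL/6J, skeletal muscle markers from 26.5 to 925.3 and from 14.9 to 620.6 CPM, and markers of the cardiac muscle of pulmonary veins from 393 to 3795 and from 590 to 1674 CPM. Of the squamous markers 4 of 12 were higher in CAST/EiJ and none lower (33.3% called, against 46.3% of all genes). Sbsn was among the higher (37.9 ± 24.8 against 10.1 ± 4.85 CPM, adjusted p = 0.0118), and of the skeletal, cardiac, liver and adipocyte markers none was called. The squamous count fell to 2 without any 1 of libraries 7, 12, 15 and 18 and to 1 without any 1 of libraries 11, 14 and 16, and 3 adipocyte markers were lower without library 12 and 1 without any 1 of libraries 7, 9, 10 and 11. Their part in the airway results was not tested. In alveolar type 2 cells, which make surfactant, 5 of 12 genes were higher and 6 lower, and 3 were higher without library 10 or 17. Lyz1, a lysozyme, was 4.68-fold higher at 2542, 2984, 2888, 2840 and 2669 CPM against 434, 544 and 806 CPM, the surfactant protein gene Sftpa1 1.56-fold higher (5680 ± 588 against 3608 ± 275 CPM) and the surfactant protease Napsa 2.35-fold lower (122 ± 13.4 against 284 ± 19.0 CPM). Lyz1 is a near copy of the macrophage lysozyme gene, so that its reads may be shared.

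Enzymes that handle BD gave mostly small differences. Cyp2e1, the P450 best known for BD activation, was not called: it stood at 44.4, 31.3, 39.1, 36.5 and 116 CPM in CAST/EiJ and from 28.1 over 59.4 to 111 CPM in C57BL/6J, with full overlap (log2 -0.28 ± 0.46 SE, adjusted p = 0.659). Ephx1, the microsomal epoxide hydrolase, was 1.20-fold lower in CAST/EiJ (239 ± 26.8 against 283 ± 33.0 CPM, adjusted p = 0.0364), and without any 1 of libraries 7, 9, 10, 14, 15, 16 or 17 it was not called (adjusted p 0.0553–0.0873). Gstt1, the glutathione transferase that acts on small epoxides, was 1.21-fold lower at 54.7 ± 4.11 against 65.6 ± 6.77 CPM with overlapping ranges (adjusted p = 0.0111). Gstm1 was 1.26-fold higher at 367, 425, 387, 352 and 347 CPM against 273, 293 and 315 CPM (log2 0.33 ± 0.07 SE, adjusted p = 0.00109), with groups apart and library 8 between them at 322 CPM. Gsta3, an alpha class transferase, was not called (478 ± 52.5 against 409 ± 60.4 CPM, adjusted p = 0.139).

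Of 24 glutathione S-transferases as a whole, 13 were higher and 5 lower (median log2 fold 0.37). Mgst2, a microsomal member, was 3.34-fold higher (17.3 ± 2.16 against 5.10 ± 1.08 CPM), Gstm7 3.14-fold and Gstt3 1.75-fold higher (47.0 ± 3.85 against 26.6 ± 1.996 CPM), while Gsta2 was 6.49-fold lower at 1.35 ± 0.322 against 8.67 ± 1.13 CPM and Gsta1 2.63-fold lower. These transferase genes lie in clusters of near copies. Among 54 activating and phase I enzymes 13 were higher and 20 lower (61.1% called, against 46.3% of all genes, median log2 fold -0.02). Aox3, an aldehyde oxidase, stood at 115, 107, 101.4, 96.6 and 115 CPM against 509, 602 and 676 CPM (5.68-fold lower, log2 -2.505 ± 0.08 SE, adjusted p = 1.07e-10). The arachidonic acid epoxygenase genes Cyp2j6 and Cyp2j9 were 5.75-fold and 3.34-fold lower. Higher were the aldo-keto reductase Akr1b8, at 114, 145, 115, 103.3 and 107 CPM against 26.7, 29.1 and 33.7 CPM (3.90-fold), and the carboxylesterases Ces2e (3.81-fold) and Ces2g (2.25-fold). All of these had groups apart.

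Cyp1a1, the P450 induced through the aryl hydrocarbon receptor, varied widely among the C57BL/6J libraries. It was measured at 2.08, 2.43, 1.66, 3.57 and 1.34 CPM in CAST/EiJ and from 30.0 over 46.2 to 164 CPM in C57BL/6J, with library 8 at 159 CPM. It was 36.1-fold lower in CAST/EiJ (log2 -5.17 ± 0.63 SE, adjusted p = 8.76e-05), with the groups apart. Sult1d1, a sulfotransferase, was lower at 0.347 ± 0.199 against 37.5 ± 13.1 CPM. With library 8 kept under its label neither Cyp1a1 (adjusted p = 0.372) nor Sult1d1 (adjusted p = 0.0794) was called in edgeR's fit.

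Targets of NRF2, the regulator of the glutathione and thioredoxin defence that reactive epoxides are known to engage, were higher in 19 of 35 cases and lower in 4 (median log2 fold 0.23). Gpx2, a glutathione peroxidase, was 2.07-fold higher at 39.3 ± 5.41 (SD, n = 5) against 18.8 ± 2.02 CPM (SD, n = 6), Ggt1, which breaks down extracellular glutathione, 2.77-fold higher at 12.7 ± 2.43 against 4.58 ± 0.691 CPM and Ugdh 1.41-fold higher. Lower were the carbonyl reductase Cbr3 at 12.9, 13.1, 13.03, 13.7 and 14.1 CPM against 22.7, 25.7 and 32.8 CPM (2.02-fold, log2 -1.01 ± 0.10 SE, adjusted p = 2.17e-06), Aox1 (1.69-fold) and Gclm, the modifier subunit of glutamate-cysteine ligase (1.48-fold, 30.3 ± 6.96 against 44.3 ± 3.45 CPM). The catalytic subunit Gclc was not called, at 700 ± 179 against 586 ± 81.9 CPM (adjusted p = 0.226). In the 6 called genes the groups were apart. Gclm lost its call with library 8 kept under its label (adjusted p = 0.0572).

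DNA damage and repair genes were called at about the background share. Of 41 p53 targets 8 were higher and 13 lower (51.2% called), of 44 base and nucleotide excision repair genes 10 were higher and 12 lower (50%), and of 46 double-strand break and crosslink repair genes 8 were higher and 13 lower (45.7%), against 46.3% of all genes. Median log2 folds were -0.04, 0.00 and -0.06. Cdkn1a, the cell cycle inhibitor p21, was not called, at 28.1, 35.7, 31.1, 25.2 and 49.5 CPM against 10.03, 28.3 and 31.2 CPM (adjusted p = 0.211). Individual targets differed more. Sulf2, a sulfatase, was 2.43-fold higher (128 ± 18.4 against 52.0 ± 3.21 CPM), Pmaip1, a proapoptotic Bcl-2 family member, 2.20-fold higher and the death receptor gene Tnfrsf10b 1.99-fold higher, whereas Psrc1 was 4.43-fold lower, Eda2r, a receptor of the tumour necrosis factor family, 2.22-fold lower and the death receptor Fas 1.69-fold lower at 39.6 ± 1.68 against 66.5 ± 7.99 CPM.

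Mgmt, which removes alkyl groups from guanine, was measured at 5.97, 4.24, 5.72, 4.78 and 4.99 CPM in CAST/EiJ and from 2.06 over 2.41 to 2.77 CPM in C57BL/6J (2.11-fold higher, log2 1.08 ± 0.13 SE, adjusted p = 1.69e-05). All CAST/EiJ libraries lay above all C57BL/6J libraries. In excision repair Ercc8, of transcription-coupled repair, was 1.70-fold higher (16.9 ± 0.979 against 9.85 ± 0.598 CPM) and the abasic site endonuclease Apex1 1.45-fold higher, while Ercc6 and Uvssa, which act with Ercc8, were 1.27-fold and 1.57-fold lower and the glycosylase Neil2 4.11-fold lower at a low level (0.382 ± 0.157 against 1.505 ± 0.247 CPM). Xpc, the damage sensor of global repair, was not called (57.8 ± 2.89 against 58.1 ± 4.49 CPM, adjusted p = 0.816). In the Fanconi anaemia pathway of crosslink repair, Fancd2 stood at 3.96, 3.19, 3.37, 3.24 and 2.30 CPM against 6.34, 7.18 and 8.34 CPM (2.29-fold lower, log2 -1.20 ± 0.14 SE, adjusted p = 1.12e-05), Fanca was 2.003-fold lower (12.01 ± 1.03 against 23.8 ± 1.94 CPM) and Fancc 1.90-fold lower (21.1 ± 1.69 against 39.8 ± 2.503 CPM), and Fancg was 1.73-fold higher (15.2 ± 1.67 against 8.68 ± 0.896 CPM). The groups of these 4 were apart.

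**Figure D4:**
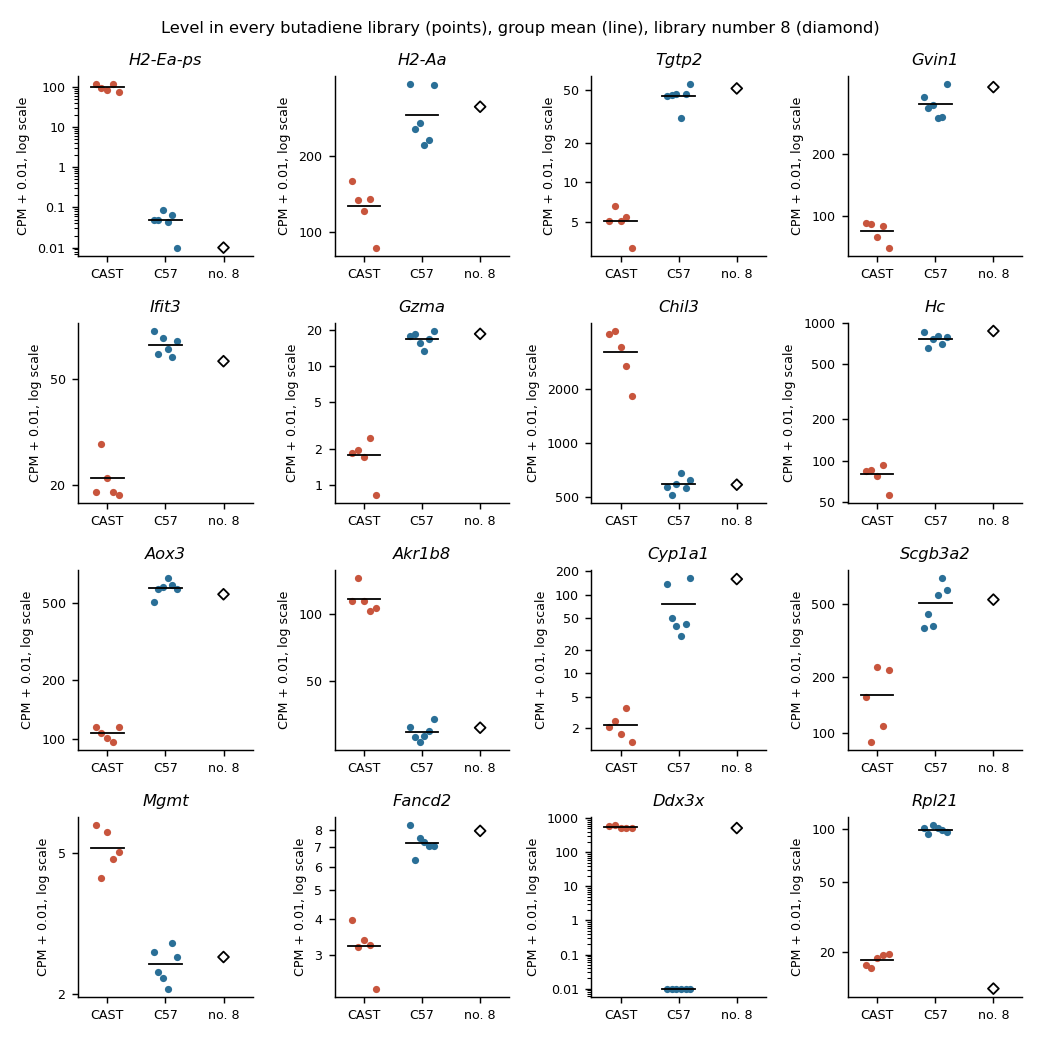
CPM plus 0.01 on log axes of 16 genes in every BD library, with CAST/EiJ and C57BL/6J libraries as points, group means as lines and library 8 as a diamond. Library 8 lies with C57BL/6J in most panels, such as Hc at 873 CPM, and with CAST/EiJ in Ddx3x (515 CPM) and Rpl21 (12.4 CPM).

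Energy and protein synthesis genes held a known strain marker. Nnt, the mitochondrial transhydrogenase that makes NADPH, is known to carry a deletion in C57BL/6J. It was measured at 64.6, 61.7, 68.4, 74.4 and 76.8 CPM in CAST/EiJ and from 28.4 over 32.0 to 35.4 CPM in C57BL/6J (2.17-fold higher, log2 1.12 ± 0.07 SE, adjusted p = 7.36e-08), with library 8 at 34.0 CPM among the latter. Of 68 genes of oxidative phosphorylation, Nnt included, 16 were higher and 2 lower, a smaller share called (26.5%) than of all genes (46.3%), and Cox7c, a subunit of cytochrome oxidase, was 2.89-fold higher. Of 19 heat shock chaperones 11 were higher and 1 lower (median log2 fold 0.45), with Hsp90ab1 at 792, 1003, 1058, 1280 and 1406 CPM against 507, 632 and 718 CPM (1.73-fold) and the mitochondrial chaperonin Hspd1 1.75-fold higher. Without library 11 the higher chaperones numbered 6 and without library 12 they numbered 7, and the lower oxidative phosphorylation genes fell to 1 without any 1 of libraries 9, 10, 11, 15, 16 and 17.

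Ribosomal protein genes were higher in 36 of 78 cases and lower in 12, and library 8 was nearer C57BL/6J in 34 of these 48. Rps12 was 3.81-fold higher (140 ± 8.16 against 36.4 ± 3.02 CPM, library 8 at 25.8 CPM), Rpl37a 2.91-fold and Rpl23a 2.43-fold higher. Rpl21 lay at 18.03 ± 1.44 against 99.7 ± 4.22 CPM, Rpl35a at 16.6 ± 1.90 against 92.8 ± 4.66 CPM and Rps2 at 15.9 ± 0.910 against 78.6 ± 5.69 CPM, and in these 3 library 8 held 12.4, 15.3 and 8.35 CPM, on the side of its label. Tpt1, a translationally controlled protein, was 2.48-fold higher, with library 8 at 469 CPM on the side of CAST/EiJ (504 ± 128 against 202 ± 36.2 CPM). Genes of this kind have many processed pseudogenes, and their counts are uncertain.

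Some differences came as runs of neighbours. Ordered by their RefSeq positions, 17080 genes gave 23 runs of 4 or more adjacent tested genes that were called at 2-fold or more in the same direction, 9 higher and 14 lower, with 123 genes in all. The longest, of 11 genes, was the protocadherin alpha cluster from Pcdha4 to Pcdhac2, cell adhesion genes that share their last exons and therefore their reads (median log2 fold 2.34). A run of 10 zinc-finger genes from Gm14295 to Zfp931 was higher (median log2 fold 1.35), a run of 8 apolipoprotein L genes from Apol7a to Apol9b was lower (-2.99) and so was a run of 8 Klra genes (-2.76). A further run of 7 NK receptor genes from Klre1 to Klri2 was lower (-2.73). The protocadherin, zinc-finger, apolipoprotein L and Klra runs are families of near copies, whereas the run from Klre1 to Klri2 is not a single such family. A run is closer to a single observation than to as many as it has genes.

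The strain difference was set beside that of 7 CAST/EiJ and 5 C57BL/6J libraries from clean air, which share no library with the BD groups. Of 16612 genes tested there, 9540 (57.4%) were called. With the title numbers over 100 left out, 7440 of 16974 were called. That fit held only CAST/EiJ libraries 1 and 2 and C57BL/6J libraries 3, 4, 5 and 6. Fewer libraries and the number series thus cannot be told apart in the lower share. Of 1793 genes tested in both that were called at 2-fold or more under BD, 1592 (88.8%) were called in clean air in the same direction, 198 were not called and 3 went the other way (Fbn2, Gapt and Slc26a4). Across 16561 genes, which are not independent replicates, the log2 folds of both exposures had a Pearson correlation of 0.88 and a Spearman correlation of 0.77. Among the strain differences above, the following were called in clean air as well: H2-Aa (log2 fold -1.52), Tgtp2 (-3.29), Gzma (-2.88), Hc (-3.71), Chil3 (2.20), Akr1b8 (1.603), Mgmt (1.32) and Nnt (1.26).

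**Figure D5:**
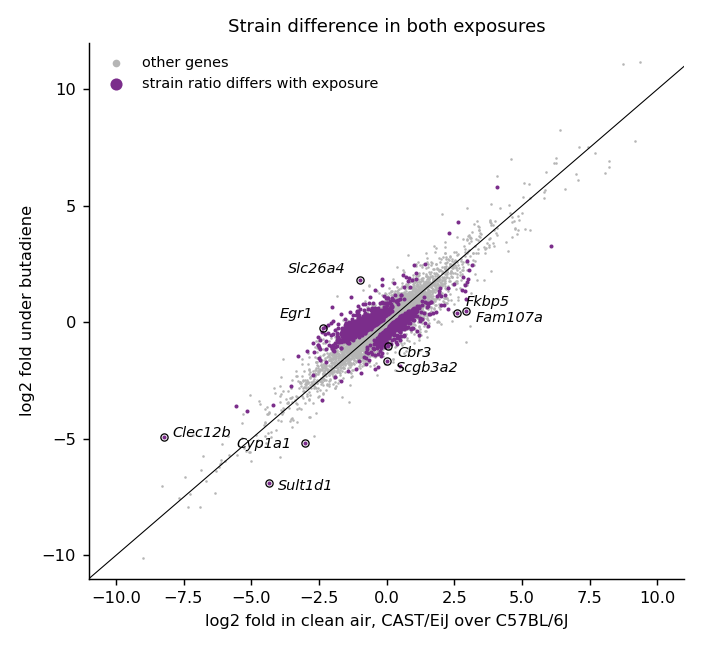
Log2 fold of CAST/EiJ over C57BL/6J under BD (vertical axis) against that in clean air (horizontal axis) for genes tested in both, with the 1:1 line and, in purple, genes whose strain ratio differed between exposures. Most genes lie along the line, Cyp1a1, Sult1d1 and Scgb3a2 lie below it, and Ddx3x lies beyond the axes and is not shown.

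A direct test of the difference, the strain ratio under BD over that in clean air, called 1641 of 17377 genes (9.44%), 977 with a higher (5.62%) and 664 with a lower ratio (3.82%) under BD. Of the 7943 strain calls under BD, 732 (9.22%) were among them. The clean-air groups mix title numbers under and over 100 unequally, so that strain and number series cannot be fully told apart in this test. With the numbers over 100 left out, and only libraries 1 and 2 for CAST/EiJ in clean air, 320 genes were called. Of these, 121 had a higher and 199 a lower ratio. The balance of directions was thus the reverse of that in the full fit. Leaving out 1 library at a time gave 372 to 3392 calls. The count was 852, 372 and 480 without C57BL/6J clean-air replicates 2, 3 and 4, and 800 and 906 without CAST/EiJ clean-air replicates 4 and 5. It was 595, 930, 825 and 603 without BD libraries 10, 15, 16 and 17, and 3234 and 3392 without CAST/EiJ clean-air replicate 6 and C57BL/6J clean-air replicate 1.

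Of 31 named genes called in this test, 8 were also called with the numbers over 100 left out. Fam107a, which glucocorticoids induce, was 7.66-fold higher in CAST/EiJ in clean air and was not called under BD by edgeR (80.0 ± 25.9 against 56.3 ± 15 CPM, adjusted p = 0.0966; DESeq2 called it, adjusted p = 0.0393), and its ratio differed by -2.46 ± 0.33 (log2, SE; adjusted p = 0.00149). Scgb3a2 did not differ beyond its spread in clean air (452 against 433 CPM) and was 3.17-fold lower under BD (ratio -1.71, adjusted p = 0.02). Sult1d1 had a ratio of -2.53, Aox3 of -0.83 and Bst2 of -0.64, each lower in CAST/EiJ by more under BD than in clean air. Fas had a ratio of -0.76 and was not called in clean air (45.2 against 44.4 CPM, adjusted p = 0.891). Egr1, an immediate early gene, had a ratio of 2.09: it was lower in CAST/EiJ in clean air (9.57 against 47.9 CPM) and not called under BD. Samhd1 had a ratio of 0.48. Of these 8 genes, Aox3, Fam107a and Fas were also called on leaving out each of the 23 libraries. Without C57BL/6J clean-air replicate 3 the other 5, Bst2, Egr1, Samhd1, Scgb3a2 and Sult1d1, were not called.

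The other 23 were not called without the numbers over 100, a fit with fewer clean-air libraries, although all 23 ratios kept their sign and some their size: Cyp1a1 had a ratio of -2.10 in it, Nr4a1 of 1.94, Gsta3 of -0.73 and Clec12b of 5.33. Among them were the stress response genes Fkbp5 (ratio -2.23) and Rgcc (-1.76, its strain call under BD lost without any 1 of 7 libraries), the transcription factors Nr4a1 (2.02) and Pou2f2 (2.06), the ion exchanger Slc26a4 (2.81, with 21.2, 19.5, 15.9, 10.3 and 1.94 CPM in CAST/EiJ under BD and no strain call by limma-voom, adjusted p = 0.172), the myeloid receptor Clec12b (3.39, at 0.195 ± 0.144 against 5.33 ± 1.19 CPM under BD) and Cyp1a1 (-2.19, not called in 11 of the 23 fits with 1 library left out). Of the 31 named genes, 13 were called in every fit with 1 library left out. Among these 13, the genes not called without the numbers over 100 were Cbr3, Ces2e, Clec12b, Fkbp5, Ggt1, Marco, Nr4a1, Pou2f2, Rgcc and Slc26a4. For the BD enzymes, the ratio was -0.45 for Ephx1 and Gstt1 and -0.63 for Gsta3: Gsta3 was higher in CAST/EiJ in clean air (316 against 174 CPM) and not called under BD, and its ratio was not called in 9 of the 23 fits with 1 library left out. In clean air neither Ephx1 (adjusted p = 0.161) nor Gstt1 (adjusted p = 0.239) was called, and each lost the call of its ratio on leaving out any 1 of 17 of the 23 libraries. In the fit of all 23 libraries 5.62% of all genes had a higher and 3.82% a lower ratio under BD. The list counts that follow come from that fit alone. With the numbers over 100 left out, 121 genes had a higher and 199 a lower ratio, and the lists were not counted there. The ratio was lower in 15 of 54 phase I enzymes and higher in 1, and it was lower in 9 of 20 glucocorticoid-responsive, 5 of 10 erythroid, 6 of 23 endoplasmic reticulum stress, 4 of 13 club cell, 3 of 7 neuroendocrine and 10 of 68 oxidative phosphorylation genes. It was higher in 16 of 46 DNA methylation and histone modifier genes, 7 of 25 immediate early genes, 6 of 20 T cell markers, 4 of 12 dendritic cell markers and 8 of 48 chemokine genes. Of 12 smooth muscle and pericyte markers 2 had a higher and 3 a lower ratio.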

How the data were processed

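Polyadenylated lung RNA of 24 libraries was compared here through the table of whole-number gene counts that the authors deposited. Reads were aligned with GSNAP to mm9, per the submitters' processing notes, and no source used here names the versions, the counting tool or the gene annotation. mm9 derives from C57BL/6J, and reads with CAST/EiJ variants may align less well. Of 23893 entries, 23872 held a count in every library. 985 entries fell into 284 sets with identical counts in all libraries, and no 2 libraries agreed within sampling noise. No per-sample column was left without a label (0 unused).

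In R 4.3.3, edgeR 4.0.16 (filterByExpr, TMM factors, robust quasi-likelihood fit) was run on the 11 BD libraries, 5 against 6, with Benjamini-Hochberg adjustment over all genes tested. The clean-air comparison and the test of the difference of both used the same model, and limma 3.58.1 (voom) and DESeq2 1.42.0 were run as alternatives, beside other size factors and filters, thinning to the smallest total, identical entries counted once, all 23 libraries in the fit, library 8 under its label and each library left out in turn. On simulated counts of 17029 genes for the BD comparison the test recovered 46% of 1.5-fold, 80% of 2-fold, 92% of 4-fold and 100% of 8-fold changes, with 10 false among 169 calls. Only 50 genes were changed at each fold, whereas 7943 were called in the data, so that these rates need not hold for the data.

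The members and gene lists were chosen with earlier results of these data known. Named genes were taken from those with the largest folds, the highest levels among folds of at least 2 and the smallest p-values, up to 3 per direction in each list by adjusted p, a fixed set (Cyp2e1, Ephx1, Gstt1, Gstm1, Gsta3, Mgmt, Cdkn1a, Nnt, Xpc and Iigp1), the 4 longest runs of neighbours and the most changed strain ratios, passing over predicted genes, and not every gene the rule gave is printed. Chosen after their values were seen were B2m, Ciita, Ddx3y, Fbn2, Foxj1, Gapdh, Gapt, Gclc, H2-D1, H2-DMb2, H2-Eb1, H2-K1, Ifit1, Irf7, Marco, Mx1, Nlrc5 and Scgb1a1. Promoter sequences came from RefSeq (GRCm38.p6) and were matched by symbol. Small RNA and chromatin accessibility samples were not analysed here.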

Additional observations from a re-analysis of the deposited data

Results flagged for a closer look

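In 33 of 316 groups of libraries of the 158 named genes, against 15.8 that chance would mark, the highest or the lowest library lay far from the others of its strain. CAST/EiJ library 7 stood apart at 50.91 CPM of Rsph1 and 281.4 CPM of Tpt1. CAST/EiJ library 9 stood apart at 145 CPM of Akr1b8, 15.63 CPM of Cxcr2, 36.19 CPM of Ifit1, 28.48 CPM of Ifit3, 21.18 CPM of Mgst2, 17.64 CPM of Mx1, 44.66 CPM of Mx2 and 34.52 CPM of Pparg. CAST/EiJ library 10 stood apart at 0.8573 CPM of Ccl5 and 30.12 CPM of Gpx2. CAST/EiJ library 11 stood apart at 0.8108 CPM of Gzmb, 388.2 CPM of H2-K1 and 4.054 CPM of Lck. CAST/EiJ library 12 stood apart at 115.7 CPM of Cyp2e1, 231.7 CPM of Fkbp5, 0.2507 CPM of H2-Eb2 and 145.6 CPM of Rgcc. C57BL/6J library 13 stood apart at 16.8 CPM of Apex1, 48.5 CPM of Ccl21a, 26.35 CPM of Csf3r, 4.854 CPM of Cxcr2, 294 CPM of Gsta3, 12.55 CPM of Rsph1 and 38.72 CPM of Trim12a. C57BL/6J library 15 stood apart at 9.023 CPM of H2-Q2. C57BL/6J library 16 stood apart at 0.2285 CPM of Amer1 and 0.03264 CPM of Ear11, the latter a mark that rests on 1 count. C57BL/6J library 17 stood apart at 31.06 CPM of C6, 233.4 CPM of Ltf and 89.46 CPM of Rps2. C57BL/6J library 18 stood apart at 133.1 CPM of Tpt1. CAST/EiJ library 9 was the high one in each of its genes, among them the interferon-induced Ifit1, Ifit3, Mx1 and Mx2.

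The strain ratio differed between exposures, by the direct test, in 1641 genes, 31 of them named. The log2 ratio under BD over that in clean air was 0.57 for Cd74, 1.33 for Chia1, 3.39 for Clec12b, 0.57 for Cxcl12, 2.09 for Egr1, 2.02 for Nr4a1, 2.06 for Pou2f2, 0.48 for Samhd1, 2.81 for Slc26a4 and 0.54 for Uvssa. It was -0.83 for Aox3, -0.64 for Bst2, -1.1 for Cbr3, -0.9 for Ces2e, -2.19 for Cyp1a1, -0.64 for Cyp2f2, -0.45 for Ephx1, -2.46 for Fam107a, -0.76 for Fas, -2.23 for Fkbp5, -0.82 for Ggt1, -0.63 for Gsta3, -0.45 for Gstt1, -0.84 for Hp, -0.45 for Ifi27, -0.85 for Lyz1, -1.37 for Marco, -0.37 for Retsat, -1.76 for Rgcc, -1.71 for Scgb3a2 and -2.53 for Sult1d1. As the report gives, 8 of the 31 were called with title numbers over 100 left out. Of the epithelial genes here, Scgb3a2, Cyp2f2 and Hp stood on the club cell list and Lyz1 on that of alveolar type 2 cells.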

How the results depend on the processing

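Over the alternatives of filter, size factors, tool, thinning and identical entries, the number of genes called under BD stayed between 7145 and 8352, and with library 8 kept under its label it was 5579. Leaving out 1 library gave 7182 to 7915 calls, 1857 to 2135 of at least 2-fold, and 8662 to 9874 calls in clean air. With title numbers over 100 left out 7440 genes were called in clean air. Calls of at least 2-fold numbered 1273 with library 8 kept. The test of the difference between exposures depended on its settings: 1041 genes were called with no filter on low counts, 2507 by DESeq2 and 372 to 3392 with 1 library left out. With title numbers over 100 left out 320 were called, 121 with a higher and 199 with a lower ratio. The cause was not tested. Of 158 named genes, 146 were called under BD, and over up to 20 alternatives each 3103 values kept direction and side of the threshold, 39 lost the call, 1 gained it and 12 changed sign, while in 5 cases the gene was not tested (Clec2h, Ear11, H2-Ea-ps and Klrb1-ps1 with library 8 kept, Gvin1 with identical entries counted once). With library 8 kept, 17 calls were lost. Sign changes were limited to 5 uncalled genes: with library 8 kept the log2 fold was 0.0118 for Egr1, 0.0848 for Nr4a1 and 0.0263 for Pou2f2, and with 1 library left out it ran from -0.0598 to 0.0084 for Xpc, from -0.3584 to 0.034 for Pou2f2, from -0.1685 to 0.1775 for Nr4a1 and from -0.0204 (without library 12) to 0.5324 for Fkbp5. No paired analysis was possible because the groups compared share no title number. Genes under about 1 CPM rest on few counts in the smallest library.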
